A study of Homo sapiens with 22 samples.

Results

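The regions described here are stretches of open chromatin that were listed in H1 human embryonic stem cells, overlapped no listed region of HFFc6 fibroblasts, and lay within 1 kb of either end of a protein-coding gene. ATAC-seq cuts DNA where nucleosomes leave it exposed, and a peak caller turns the cuts into regions, each with a fold enrichment over the local background and a q-value. Of 189982 H1 regions on chromosomes 1 to 22 and X, 4644 met this rule. They were therefore chosen on the measured overlap of the H1 and HFFc6 ATAC lists, and the absence of an HFFc6 region from them is a selection and no finding. The labels give 2 ATAC libraries of H1 cells and 8 of HFFc6, a subclone of human foreskin fibroblasts made immortal with hTERT, with no treatment, genotype or time for either. The titles of the 8 each carry an R and a T number without saying what these stand for, so the 8 may not be independent replicates. Regions bound by CTCF in HFFc6 were mapped by Cut&Tag, which cuts and tags DNA beside an antibody-bound protein, in 2 libraries whose titles begin with HFF1 although their cell line is given as HFFc6. A second CTCF list is named for human embryonic stem cells without a label that ties it to a sample. Each list is 1 file per cell line and assay, so no replicate spread exists and no difference between cell lines was tested. The bracketed ranges are 95% Wilson intervals, which cover counting error only, because neighbouring regions are not replicates.

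Embryonic stem cells are pluripotent epithelial-like cells held together by E-cadherin, and they depend on FGF and Nodal signalling. Fibroblasts are mesenchymal cells in which ZEB and SNAI factors, repressors that bind the E-box CACCTG, are known to keep epithelial genes silent. Open promoters are of 2 broad kinds: CpG-rich promoters, open in most cell types, and CpG-poor promoters, whose opening depends more on the cell type.

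The promoters below illustrate the 2 sequence features described for H1-only gene starts, E-boxes and low CpG content, given as the 250 bases upstream of the RefSeq start, 5′ to 3′ on the gene's strand (GRCh38.p14). All 6 genes belong to the gene lists described further on and were picked from them after their values were seen. The first 3 are shown for their E-boxes, CACCTG or its complement CAGGTG, printed in capitals. AP1M2 encodes an epithelial clathrin adaptor subunit, MYO5B a myosin motor of polarised cells, and ZFP42 (REX1) a zinc-finger marker of pluripotency.
AP1M2, chr19:10587313-10587562, minus strand: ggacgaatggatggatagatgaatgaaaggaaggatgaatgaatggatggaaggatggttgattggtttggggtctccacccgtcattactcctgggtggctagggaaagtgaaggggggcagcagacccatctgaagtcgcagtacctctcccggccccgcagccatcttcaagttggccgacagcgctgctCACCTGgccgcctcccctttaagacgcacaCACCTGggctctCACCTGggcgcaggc
MYO5B, chr18:50195148-50195397, minus strand: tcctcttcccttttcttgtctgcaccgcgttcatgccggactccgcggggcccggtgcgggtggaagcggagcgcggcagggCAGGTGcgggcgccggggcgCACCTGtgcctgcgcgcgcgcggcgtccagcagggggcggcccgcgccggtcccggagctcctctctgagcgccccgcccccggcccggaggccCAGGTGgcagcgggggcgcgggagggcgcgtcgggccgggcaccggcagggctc
ZFP42, chr4:187995521-187995770, plus strand: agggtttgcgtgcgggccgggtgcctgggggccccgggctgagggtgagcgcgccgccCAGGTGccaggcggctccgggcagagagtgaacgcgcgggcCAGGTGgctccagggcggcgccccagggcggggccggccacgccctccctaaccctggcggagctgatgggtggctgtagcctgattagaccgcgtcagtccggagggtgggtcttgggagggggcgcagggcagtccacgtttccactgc
In AP1M2 the E-boxes began 57, 27 and 15 bases before the start, counted as -57, -27 and -15. In MYO5B they began at -168, -148 and -54, and in ZFP42 at -192 and -151. The next 3 are shown for their scarcity of CpG, with each CG in capitals. CRIPTO is a co-receptor for Nodal, DPPA2 a chromatin factor of pluripotent cells, and CER1 a secreted antagonist of Nodal.
CRIPTO, chr3:46574285-46574534, plus strand: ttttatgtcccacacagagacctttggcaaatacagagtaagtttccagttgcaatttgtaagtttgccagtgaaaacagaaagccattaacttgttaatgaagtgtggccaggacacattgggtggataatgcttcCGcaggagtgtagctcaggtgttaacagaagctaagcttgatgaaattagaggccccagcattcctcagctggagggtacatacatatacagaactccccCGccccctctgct
DPPA2, chr3:109316518-109316767, minus strand: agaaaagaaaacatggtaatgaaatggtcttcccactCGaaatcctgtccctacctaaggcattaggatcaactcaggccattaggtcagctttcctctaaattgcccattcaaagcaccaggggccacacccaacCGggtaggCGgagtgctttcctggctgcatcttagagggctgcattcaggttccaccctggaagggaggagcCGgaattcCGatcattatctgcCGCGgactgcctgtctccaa
CER1, chr9:14722734-14722983, minus strand: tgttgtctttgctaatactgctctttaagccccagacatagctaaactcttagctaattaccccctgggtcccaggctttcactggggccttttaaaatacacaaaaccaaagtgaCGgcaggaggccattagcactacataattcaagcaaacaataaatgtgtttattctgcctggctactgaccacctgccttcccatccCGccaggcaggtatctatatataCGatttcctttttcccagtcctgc
Over 300 bases around the start (250 upstream and 50 downstream), the ratio of observed to expected CpG was 0.12 for CRIPTO, 0.36 for DPPA2 and 0.2 for CER1. The same ratio was 0.65 for AP1M2, 0.98 for MYO5B and 0.7 for ZFP42. An H1-only region lay over each of these 6 starts.

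H1 regions at gene ends mostly overlapped an HFFc6 region. Among the 20236 H1 regions at gene ends, 22.9% were H1-only, against 68.2% of all H1 regions. The 15592 that overlapped HFFc6 are called shared below. The H1-only regions at gene ends were narrower and weaker than the shared ones: the median width was 320.5 bp against 612 bp, and the median fold enrichment 5.116 against 9.206. A −log10 q of at least 10 was reached by 49.1% of the H1-only regions at ends and by 83% of the shared ones. H1-only regions away from gene ends, 124896 in number, had a median width of 267 bp and a median fold of 5.213. Shared regions away from ends had 352 bp and 7.447, so the contrast was not particular to gene ends. The rule itself also favours narrow regions, since a narrow region has less room to overlap an HFFc6 region. The share of end regions that was H1-only fell along the fold scale of the H1 list, from 42.2% (40.4 to 43.9) in the lowest of 5 equal groups of fold to 7.84% (7.23 to 8.5) in the highest. Away from ends it went from 83.2% to 55.7%.

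Near the limits of the rule the values ran on without a step. In the last 100 bp inside the 1 kb limit lay 288 H1-only regions with a median fold of 4.666, and in the first 100 bp outside it 308 with a median fold of 4.845. On the overlap side, 142 of the 4644 lay within 100 bp of an HFFc6 region, with a median fold of 3.81. The 311 shared end regions of which HFFc6 covered at most 100 bp had a median fold of 4.002. The median gap from an H1-only end region to the nearest HFFc6 region was 3428 bp, and 1223 lay over 10 kb away. HFFc6 regions were also wider, with a median of 707 bp against 301 bp for H1, and with every region set to 500 bp around its summit 39.1% of end regions, 8050, were H1-only. With a −log10 q of at least 10 in both lists 2619 were.

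The 4644 regions lay at 4068 genes, 4351 of them at 1 gene and 293 at several neighbouring genes. They fell almost evenly into 2 kinds. At genes with no HFFc6 region at either end lay 2168, with a median fold of 5.585 and a median gap to HFFc6 of 8110 bp. The other 2476 lay at genes where HFFc6 also had a region at an end, with a median fold of 4.739 and a median gap of 1406 bp. A further description of genes therefore counts a gene as open in H1 alone only where neither of its 1 kb end windows held an HFFc6 region. That was so for 1656 of 19974 protein-coding genes, 8.29% (7.92 to 8.68). With a −log10 q of at least 10 asked of the H1 list alone, 1070 genes were H1-alone. HFFc6 alone had a region at 1109 genes, 5.55%, both lines at 14083, and neither at 3126. Among the H1-alone genes 1161 held 1 H1-only region and 482 held more. The remaining 13 held none, because their H1 region reached out to an HFFc6 region beyond the window.

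Which end of the gene was open could be told for the 15812 genes whose strand the RefSeq promoter table gives. At gene starts 15.6% (14.9 to 16.2) of H1 regions were H1-only, 2048 of 13166. At the other ends of genes, where transcripts finish, 55.1% (53.2 to 57.1) were H1-only, 1368 of 2481. These 2 shares have intervals that do not overlap. Genes were also counted, over the 14895 with a strand and end windows that do not overlap. Of 11745 starts with an H1 region 10.3% (9.77 to 10.9) had none of HFFc6, and of 2826 other ends 42.9% (41 to 44.7). The mirror image in HFFc6 was similar. Of 11279 starts with an HFFc6 region 6.6% had none of H1, and of 3378 other ends with one 52.2%. Of the 1117 H1-alone genes with a strand and separate windows, 808 were open at the start only, 170 at the other end only and 139 at both.

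**Figure D1:**
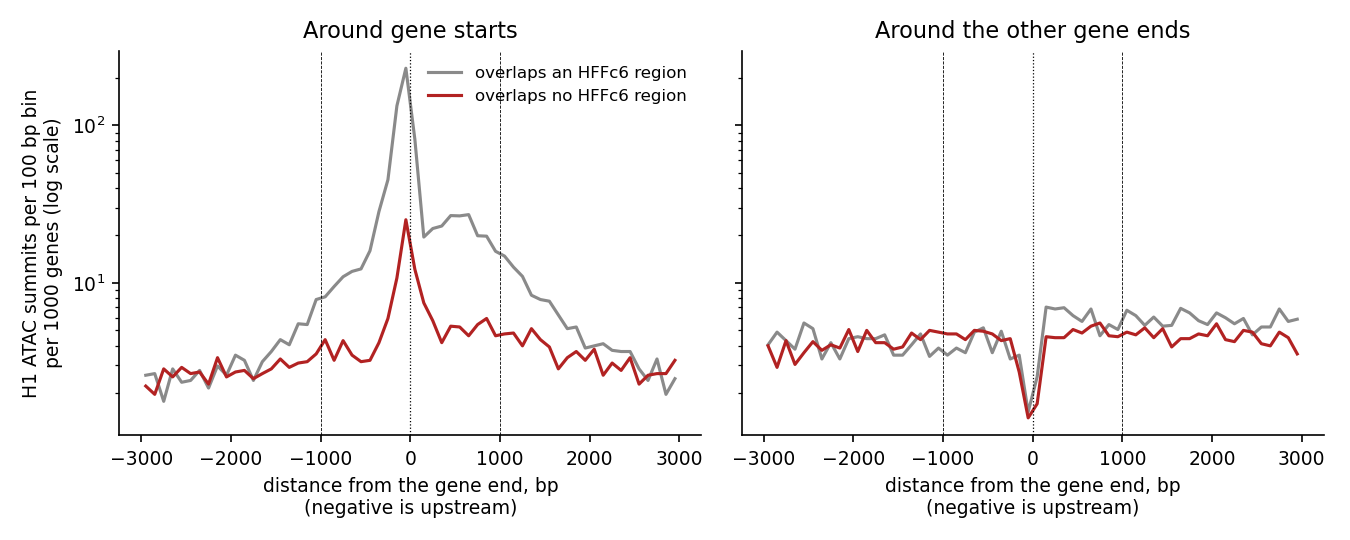
Number of H1 ATAC summits per 100 bp bin and per 1000 genes (log scale) against distance from the gene start (left) and from the other gene end (right), for H1 regions that overlap an HFFc6 region (grey) and that overlap none (red). Dashed lines mark the 1 kb limit. H1-only summits peak in the 100 bp before the start, at 25.2 per 1000 genes against 230.5 for shared summits, and both sets dip at the other end.

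The position of the summits also set the ends apart. In the 100 bp just upstream of gene starts lay 398 H1-only summits, or 25.2 per 1000 genes, and 3645 shared ones. At the other end there was no peak: the 100 bp before it held 22 H1-only and 24 shared summits, or 1.39 and 1.52 per 1000 genes. H1-only regions at starts were wider than those at other ends, with medians of 354 bp and 272 bp, and had similar folds, 5.271 and 5.038. Of all 4644 regions 1295 contained a gene end, 1772 came within 500 bp of one, and 1577 lay farther out. A lncRNA gene end lay within 1 kb of 455 of them.

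The highest folds of H1-only regions at H1-alone genes lay at genes of several kinds, among them genes of the nervous system. CSRNP3, which encodes a nuclear protein of the cysteine-serine-rich family, had the region with the highest fold, 31.68, at chr2:165469485-165469716 (hg38), over its start. The nearest HFFc6 region was 62754 bp away. CDH10, a type II cadherin of the nervous system, followed with a fold of 29.24 at chr5:24644751-24645258, again over the start, 143593 bp from the nearest HFFc6 region. VIP, which encodes vasoactive intestinal peptide, had a start region with a fold of 26.23, and GABRG1, a subunit of the GABA-A receptor, one with a fold of 24.06. The cilium-related CCDC81 reached 26.81 at its start and 5.213 at its other end. GIMAP5, a GTPase of lymphocytes, had its region 949 bp before the start with a fold of 25.16, and ZBBX had one inside the gene, 730 bp from the start, with a fold of 24.89. ADAM28, a membrane metalloprotease, had 24.53. One region with a fold of 24.57 lay near both F8A1 and H2AB1 on chromosome X. F8A1 has near-identical copies on that chromosome, so reads may have been split between them and that value is uncertain.

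Pluripotency genes were often open in H1 alone, 40.6% of them against 8.29% of all genes, on a list chosen with results of these data known. Of 32 such genes, 13 were H1-alone (25.5 to 57.7%), 1 was open in HFFc6 alone (LEFTY2), 15 in both and 3 in neither. The median fold of their 22 H1-only regions was 5.187, near the 5.585 of all H1-alone genes. L1TD1, an RNA-binding protein of stem cells, had 2 regions: one over the start, chr1:62194410-62195026, with a fold of 11.2, and one 671 bp past the other end with a fold of 5.579. DPPA2 reached 15.37 over its start (chr3:109316321-109316721) and its neighbour DPPA4, a partner protein, 10.59 and 4.894 beyond its other end, while its outermost start held no region. ZFP42 had 10.2 at the start and 3.968 inside the gene. USP44, a deubiquitinase, had 11.18, PRDM14, a transcription factor that guards pluripotency, 9.224, and CRIPTO 7.564. GDF3, a TGF-beta ligand, had 6.97, and LIN28A, which blocks let-7 processing, 5.801. LEFTY1, FGF4 and DNMT3L were H1-alone with folds of at most 2.578, 4 and 3.072.

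The best-known stem cell factors were not in this set. SOX2 had regions of both lines at its start. NANOG had none at its outermost start, and its other end was open in both lines. POU5F1 (OCT4) had no region of either line within 1 kb of its gene ends. The gene model's outermost ends decide this, so a promoter inside the model is not counted.

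Epithelial genes gave the same share. Of 37 genes 15 were H1-alone (40.5%, 26.3 to 56.5), 20 were open in both lines and 1 each in HFFc6 alone (PKP3) and in neither. Their 29 H1-only regions had a median fold of 5.047. CDH1, which encodes E-cadherin, had a region with a fold of 12.58 at chr16:68737069-68737511 over its lower-coordinate end, 4305 bp from the nearest HFFc6 region, and a second with 2.681. The clathrin adaptor gene AP1M2 had the highest fold of the list, 14.56, over its start at chr19:10587018-10587484. The tricellular junction gene MARVELD2 had 12.19, the keratin gene KRT19 12.01, and MAL2, an apical transport protein, 11.75. The transcription factors GRHL2 and OVOL2, which promote the epithelial state, had 10.87 and 10.82, and OVOL1 had 5.49 and 3.666. Among claudins, the strands of tight junctions, CLDN7 had 9.164 and 5.047, CLDN4 had 3.697, 8.776 and 3.387, and CLDN6, abundant in stem cells, 6.316. Over the whole claudin family 5 of 26 genes were H1-alone (19.2%, 8.51 to 37.9) and 4 were open in HFFc6 alone, CLDN2, CLDN9, CLDN18 and CLDN20. Of 55 keratins 7 were H1-alone (12.7%, 6.3 to 24) and 6 HFFc6-alone. CRB3, a polarity protein, had 8.829 and MYO5B 6.901 at the start. The membrane proteases ST14 and PRSS8 had highest folds of 4.606 and 5.764. Of the 29 regions 16 overlapped the stem-cell-named CTCF list and 1 the HFFc6 CTCF list. Of all H1-only regions at H1-alone genes 45.6% and 9.64% did, and 29 regions are too few to read a difference from.

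Nodal and FGF signalling, which partly shares its genes with the pluripotency list, had 8 of 21 genes H1-alone (38.1%, 20.8 to 59.1). Beside CRIPTO, GDF3, LEFTY1 and FGF4 these were CFC1, a second Nodal co-receptor, with a highest fold of 8.191, the Nodal effector FOXH1 with 8.47, FGFR2 with 7.262 and FGF19 with 4.549. Genes that mark later fates were also in the set. Of 20 neural genes 5 were H1-alone (25%, 11.2 to 46.9): ZIC1 (7.777), EMX2 (6.057), SOX3 (5.169), OTX2 (3.692) and HES5 (3.672), each with its highest fold in parentheses. Of 18 endoderm and mesoderm genes 4 were (22.2%, 9 to 45.2): CER1 with 16.85 at chr9:14722368-14723081, TBXT (Brachyury) with 6.023, HNF4A with 3.723 and GSC with 3.7. None of these neural, endoderm or mesoderm genes was open in HFFc6 alone, where the share of all genes was 5.55%, too low to read anything from lists of this size. Germline genes gave 3 of 22 (13.6%, 4.75 to 33.3), DDX4, DPPA3 and MOV10L1, with highest folds of 6.33, 3.351 and 3.278. DNA methylation genes gave 1 of 8 (12.5%, 2.24 to 47.1), DNMT3L. Both intervals include the 8.29% of all genes.

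Lists that mark other cell types gave few H1-alone genes, with intervals that include the 8.29% of all genes except for keratinocytes. No fibroblast gene of 20 was H1-alone (0 to 16.1%), 17 were open in both lines, and COL6A3 and POSTN were open in HFFc6 alone. No blood gene of 10 was H1-alone (0 to 27.8%) and 1 endothelial gene of 10 was (1.79 to 40.4%), VWF with a fold of 3.723. Keratinocyte genes gave 3 of 10, KRT5, TP63 and DSG3, with highest folds of 3.814, 4.096 and 5.957 (30%, 10.8 to 60.3). All 15 housekeeping genes were open in both lines.

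**Figure D2:**
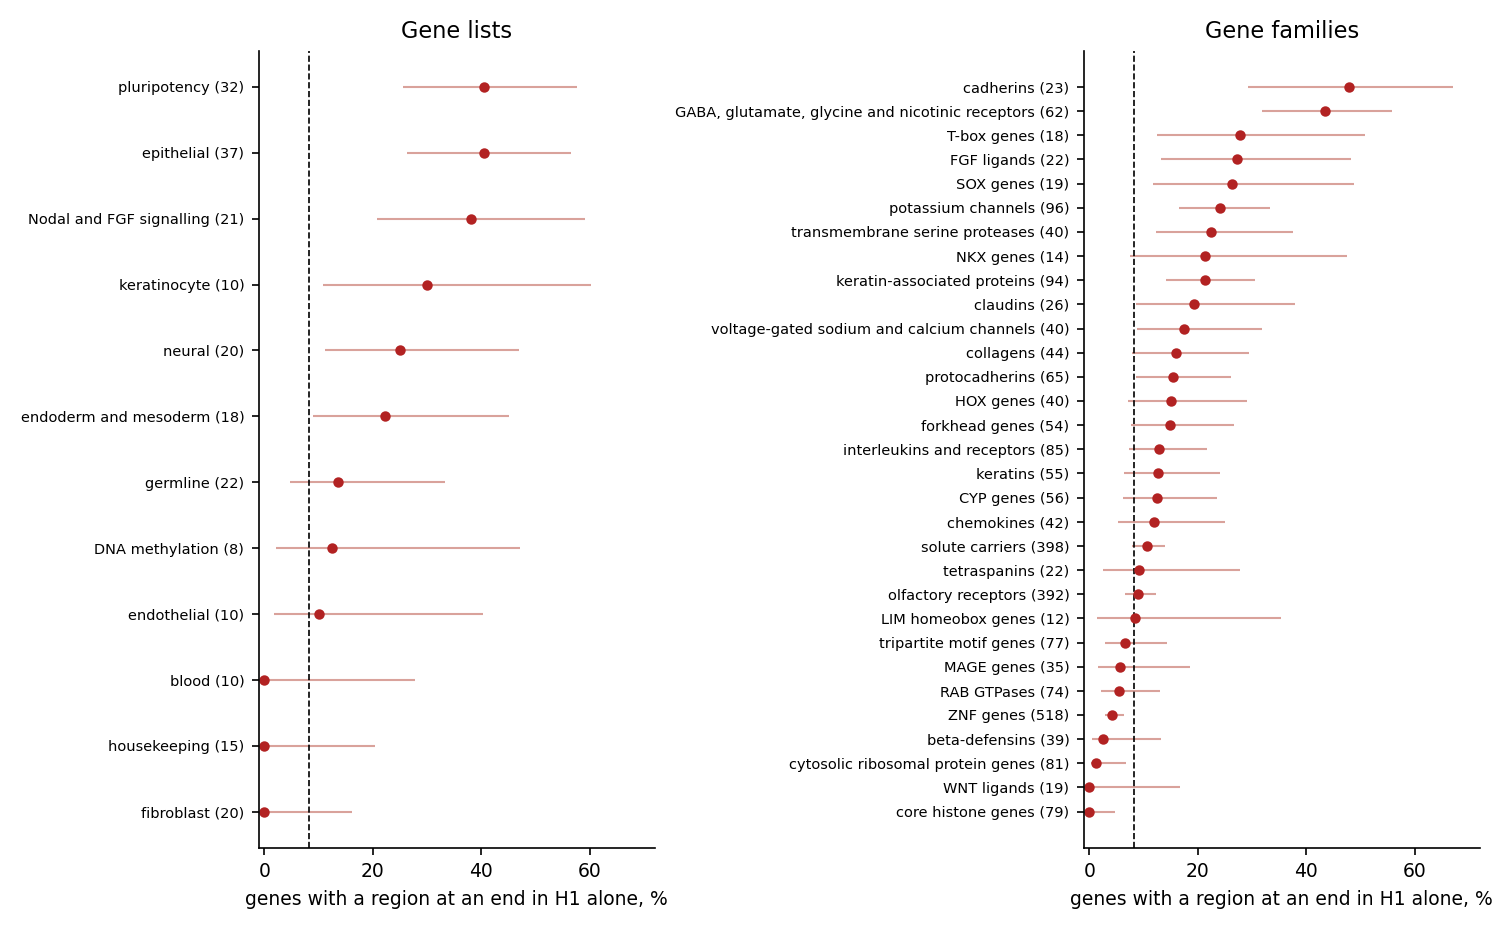
Share of genes with an ATAC region at an end in H1 alone, in percent, for each gene list (left) and gene family (right), with the number of genes in brackets. Points are shares, bars 95% Wilson intervals, and the dashed line is the 8.29% of all protein-coding genes. Cadherins (47.8%), neurotransmitter receptors (43.5%), pluripotency (40.6%) and epithelial genes (40.5%) stand farthest right, and core histone and WNT genes at 0.

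Gene families were also counted. Their members were set by symbol alone, but the families, like the lists, were chosen with results of these data known. Cadherins, adhesion molecules that sort cells by type, had 11 of 23 genes H1-alone (47.8%, 29.2 to 67) and 1 open in HFFc6 alone, CDH4. Their 14 regions had a median fold of 8.101. Of the 14, 9 overlapped the stem-cell-named CTCF list and 0 the HFFc6 one, against 45.6% and 9.64% of all regions at H1-alone genes. These 14 regions are too few to read a difference from. Beside CDH1 and CDH10 the H1-alone cadherins included CDH12 with a fold of 19.07, CDH9 with 13.41 and CDH18 with 13.03. These neuronal type II cadherins lie on chromosome 5 with CDH10, each with a region over its start. CDH7, CDH19 and CDH20 lie on chromosome 18, with folds of 8.976, 3.723 and 8.408.

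Receptors for GABA, glutamate, glycine and acetylcholine, the ligand-gated channels and metabotropic receptors of synapses, had 27 of 62 genes H1-alone (43.5%, 31.9 to 55.9) and 3 open in HFFc6 alone. Of the GABA-A subunits, GABRG1, GABRA2, GABRA4 and GABRB1 form a cluster on chromosome 4. GABRA4 and GABRB1 face away from each other around 1 region with a fold of 13.66, chr4:46993157-46994279, and count as 2 genes on 1 region. GABRA2 had 3 regions with folds between 5.232 and 6.184. GABRA6 had a region of 5.957 and GABRB2 one of 4.236. Among glutamate receptors GRM3 had 11.31, GRIN2B 11.15, GRM5 10.4 and GRM7 8.589. Among nicotinic subunits CHRNB1 had 9.494, CHRNB3 9.434 and CHRNA7 6.693 and 6.354. Of the 40 regions of these 27 genes 19 overlapped the stem-cell-named CTCF list and 3 the HFFc6 one.

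Potassium channels had 23 of 96 genes H1-alone (24%, 16.5 to 33.4) and 5 in HFFc6 alone. Voltage-gated KCNA4, KCNA3 and KCNA5 had highest folds of 12.55, 10.22 and 7.555, and the leak channel KCNK5 had 15.23 near its other end and 9.157 at the start. FGF ligands had 6 of 22 (27.3%, 13.2 to 48.2), led by FGF14 with 17.46 and FGF12 with 15.81, intracellular family members that act on sodium channels. T-box genes had 5 of 18 (27.8%, 12.5 to 50.9) and SOX genes 5 of 19 (26.3%, 11.8 to 48.8), against 8.29% of all genes. Transmembrane serine proteases had 9 of 40 (22.5%, 12.3 to 37.5). Keratin-associated proteins, the matrix of hair, had 20 of 94 (21.3%, 14.2 to 30.6) H1-alone and 10 HFFc6-alone (10.6%, against 5.55% of all genes). These small genes sit in clusters, 17 of the 20 on chromosome 21, and the median fold of their regions was 4.431. KRTAP13-3 had the highest, 21.54, with its summit at -978 from the start.

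Other large families lay below or near the H1-alone share of all genes. ZNF genes gave 22 of 518 (4.25%, 2.82 to 6.35), ribosomal protein genes 1 of 81 (the retrogene RPL10L), RAB GTPases 4 of 74 (2.12 to 13.1%) and core histone genes 0 of 79 (0 to 4.64%). Solute carriers, membrane transporters, gave 42 of 398 (10.6%, 7.9 to 14). WNT ligands gave 0 of 19 (0 to 16.8%), with WNT1, WNT11 and WNT16 (15.8%) open in HFFc6 alone. Olfactory receptors gave 35 of 392 (8.93%), near the share of all genes. Interleukins and their receptors gave 11 of 85 (12.9%) in H1 alone and 17 of 85 (20%) in HFFc6 alone. Chemokines gave 5 of 42 (11.9%) against 8 (19%). Of all genes 5.55% were open in HFFc6 alone, so in these families the HFFc6-alone share stood above that of all genes.

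An H1 region at each end with no HFFc6 region at either was found at 266 genes. For 180 of them the 1 kb windows did not overlap, and 2 of these had 1 region that touched both windows. At ASB10, KRT19 and SLC17A7 the H1 region at one of the ends overlapped an HFFc6 region that lay outside the window, so 177 of the 180 had an H1-only region at each end. Gene lengths ran from 2.058 kb (SOX18) to 1040 kb (SGCD, a sarcoglycan), with a median of 21.85 kb; 52 were under 10 kb and 39 over 100 kb. Ranked by the weaker of the 2 ends, CNKSR1, a scaffold of Ras signalling, came first. Its start region at chr1:26177097-26177621 had a fold of 20.07 and its other end, at chr1:26190094-26190908, one of 15.85. GSTO2, an omega-class glutathione transferase, had 20.75 and 14.28. GSTA2, an alpha-class transferase, had 22.62 at the start and 12.66 at the other end. CNTN6, a neural adhesion molecule, had 11.43 and 14.15, and both regions lay far from any HFFc6 region, at 715155 and 1026754 bp. KLHDC7A had 16.53 and 11.33, the matricellular TINAGL1 10.58 and 9.921, and RCAN2, a calcineurin regulator, 9.767 at the start and 13.4 at the other end. C8orf89, without a strand here, had 19.68 and 10.86. At KCNK5, named above, the other end again had the higher fold. TMEM95, a sperm membrane protein, had a single region of 9.737 within reach of both ends. With a −log10 q of at least 10 in both lists the 180 became 77, and with a 500 bp window 110. Over the 177 the fold of the weaker end had a median of 4.434 and ran from 2.69 to 15.85.

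Several H1-alone genes held 4 H1-only regions. NPTX2, a synaptic pentraxin, had folds of 7.167 and 6.73 at the start and 6.044 and 6.944 at the other end. TCERG1L ran from 2.508 to 9.974, SDK1 (a synaptic adhesion molecule) from 3.001 to 6.657, CLEC2L from 2.95 to 4.748, and CYP7B1, an oxysterol hydroxylase, from 2.604 to 9.768. In each of these genes regions lay at both ends.

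**Figure D3:**
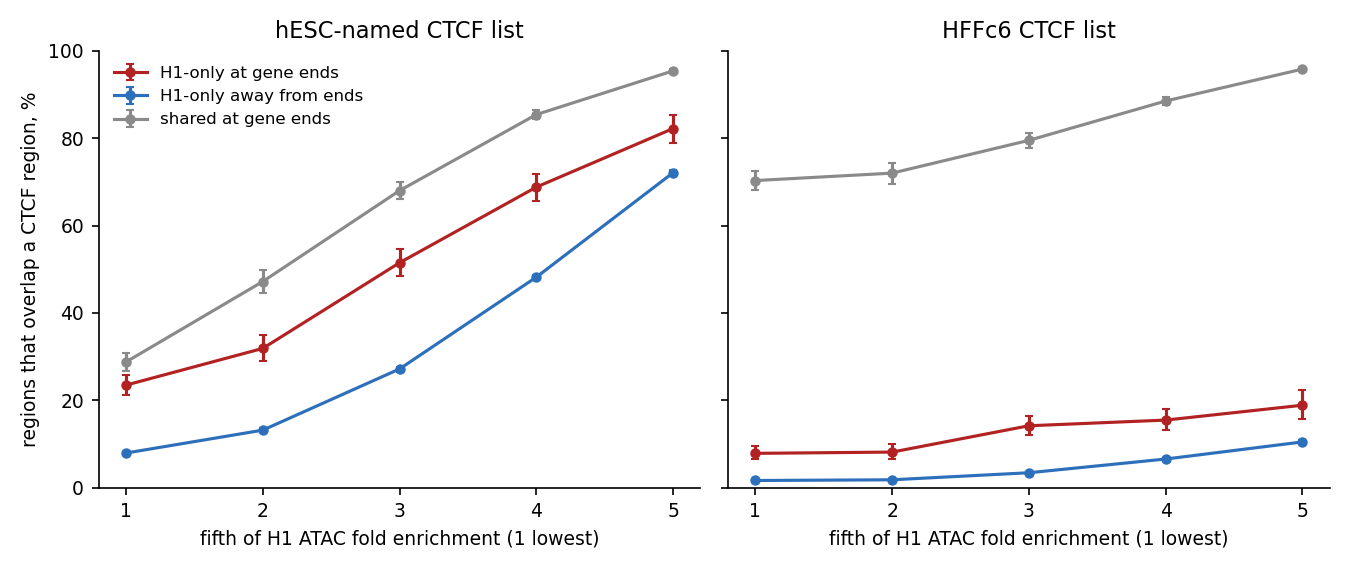
Share of H1 ATAC regions that overlap a region of the stem-cell-named CTCF list (left) and of the HFFc6 CTCF list (right), in percent, in 5 groups of equal size by H1 ATAC fold. Red, H1-only at gene ends; blue, H1-only away from ends; grey, shared at gene ends; bars are 95% Wilson intervals. On the left the red points rise from 23.5% to 82.2%, between the other 2 classes in each group.

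CTCF, which halts cohesin and so sets the feet of many chromatin loops, was not used in choosing the regions. The HFFc6 CTCF list nevertheless went with HFFc6 ATAC. Among the promoters described below, it overlapped 49.9% of those open in HFFc6 alone and 1.96% of those open in neither line. The stem-cell-named list went with H1 ATAC in the same way. It overlapped 50.4% of promoters open in H1 alone and 2.92% of those open in neither line. Shares on either list are therefore not independent of the rule, which asked for an H1 ATAC region and no HFFc6 ATAC region. Of the 4644 H1-only end regions 46.6% (45.1 to 48) overlapped the stem-cell-named CTCF list and 12% (11.1 to 13) the HFFc6 CTCF list. Over all H1 regions these shares were 41.3% and 24.7%. Shared end regions had 77.2% and 86.7%, and H1-only regions away from ends 29.5% and 4.21%. Both lists covered 9.39% of the H1-only end regions and neither covered 50.8%. CTCF overlap rose with the ATAC fold in every class. From the lowest to the highest of the 5 fold groups it was 23.5, 31.9, 51.5, 68.8 and 82.2% for H1-only end regions in the stem-cell-named list. Away from ends the same groups gave 7.96, 13.2, 27.2, 48.2 and 72.1%. Shared end regions went from 28.8% to 95.4%. H1-only end regions thus lay above H1-only regions elsewhere and below shared end regions of like fold, with intervals that did not overlap. Width moved with it too: at most 250 bp wide, 28.6% (26.5 to 30.8) of the H1-only end regions overlapped, and over 500 bp wide 69.2% (66.5 to 71.8), against 16.5% and 56.1% away from ends. In the HFFc6 CTCF list the share rose from 7.89% to 18.9% with fold.

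H1-only regions at starts overlapped stem-cell-named CTCF in 48.4% (46.3 to 50.6) and those at other ends in 43.6% (41 to 46.3). With HFFc6 CTCF the order was the reverse, 10.3% (9.01 to 11.6) at starts and 14.1% (12.4 to 16.1) at other ends. H1-only regions at H1-alone genes lay on HFFc6 CTCF in 9.64% (8.47 to 11), and those at genes open in both lines in 14.1% (12.8 to 15.5). The strongest CTCF regions of the stem-cell-named list that lay on H1-only regions of H1-alone genes and away from HFFc6 CTCF lay at CD300H (a CTCF fold of 27.8), SFRP4, a secreted WNT antagonist (25.9), GRIN2B (25.1), CNKSR1 (24.7) and TDRD5, a germline Tudor protein (22.9). At SFRP4 the CTCF region of fold 25.9 spanned 2 ATAC regions of 5.57 and 4.744 around the start.

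Promoter sequence was compared by CpG content and by motif letters. A promoter is the 300 bases from 250 upstream to 50 downstream of the RefSeq start, known for 15812 genes. An H1 region and no HFFc6 region overlapped it in 1257 (7.95%; 2004 with regions of 500 bp around summits), both lines in 9871, HFFc6 alone in 1016 and neither in 3668. The median ratio of observed to expected CpG was 0.6 in promoters open in H1 alone, against 0.852 in those open in both lines, 0.52 in those open in HFFc6 alone and 0.241 in those with no region. A ratio under 0.6 was found in 49.8% (47 to 52.6) of H1-alone promoters, 10.9% of those open in both, 55% of HFFc6-alone promoters, 85.8% of those with no region and 34.2% of all. Low CpG content was thus shared with HFFc6-alone promoters. Binned by the ratio, H1-alone opening was most frequent in the intermediate bin from 0.4 to 0.6, at 16.4% (14.5 to 18.4) of all its promoters. Below 0.2 it was 7.85%, and at 1 or more 3.55%. These shares also count promoters open in neither line, 76.2% of those below 0.2 and 29.9% of the intermediate bin. Among promoters with an H1 region, the H1-alone part was instead largest at the lowest ratios. It was 156 of 264 below 0.2, 232 of 867 from 0.4 to 0.6 and 66 of 1709 at 1 or more. HFFc6-alone opening had its highest share, 11.2% (9.87 to 12.6), in the bin from 0.2 to 0.4 and stood at 8.96% (7.58 to 10.6) in the intermediate bin.

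**Figure D4:**
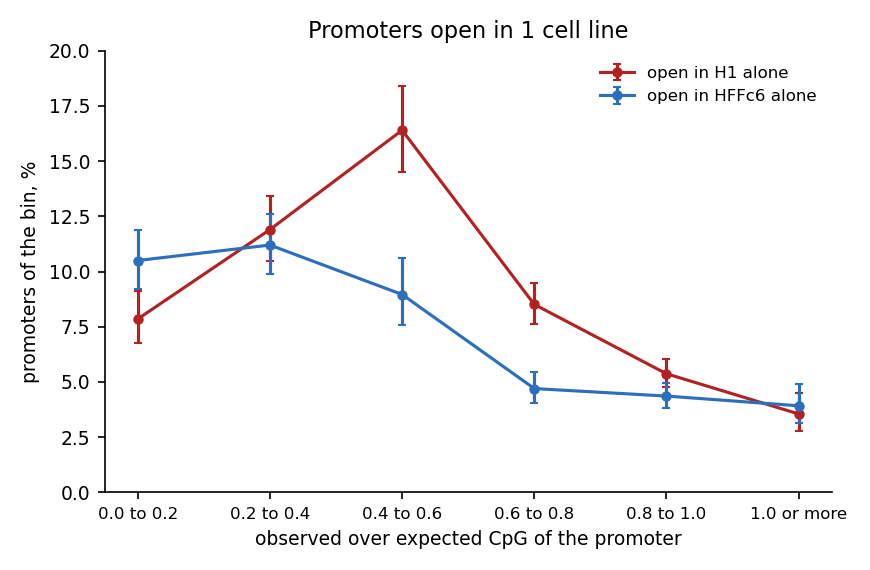
Share of promoters open in H1 alone (red) and in HFFc6 alone (blue), in percent, by the promoter's ratio of observed to expected CpG, with 95% Wilson intervals. Shares are of all promoters in a bin, including those open in neither line. The H1-alone share has its highest point, 16.4%, at ratios of 0.4 to 0.6, and both shares are under 5% at ratios of 1 or more.

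The E-box of ZEB and SNAI factors was more frequent in H1-alone promoters than in those open in HFFc6. CACCTG, on either strand, stood in 30.7% (28.2 to 33.3) of H1-alone promoters, against 17% (16.3 to 17.8) of those open in both lines, 16.5% (14.4 to 18.9) of HFFc6-alone promoters and 24.9% (23.5 to 26.3) of those with no region. All promoters together gave 19.9%. With regions of 500 bp around summits the H1-alone share was 26% (24.2 to 28) against 24.2% of promoters with no region, so the difference from that class depended on the setting. Under a CpG ratio of 0.6 the letters stood in 32.4% (28.9 to 36.2) of H1-alone promoters, 19.3% of those open in both, 16.6% of HFFc6-alone ones and 25.4% (23.9 to 26.9) of those with no region. At or above 0.6 they stood in 29% (25.6 to 32.7), 16.8%, 16.4% and 22.1% (18.7 to 25.8), where the intervals of H1-alone promoters and of those with no region overlap. Another E-box, CAGCTG, looked up after CACCTG had been counted, was near the background, at 19.7% (17.6 to 22) of H1-alone and 17.7% of all promoters. At least 2 CACCTG stood in 7.4% (6.08 to 8.98) of H1-alone promoters in 2.04% of those open in both, in 2.07% of HFFc6-alone ones and in 5.18% (4.51 to 5.95) of those with no region. At least 3 stood in 26 of 1257 H1-alone promoters, 22 of 9871 open in both, 2 of 1016 open in HFFc6 alone and 41 of 3668 with no region. Of the 26, the most sites were found at LOC124904094 with 9 and PDE4C with 6, followed by CD164L2, CLUL1, CRB3 and HMGCLL1 with 5 each. Of the epithelial list CRB3 was among the 26, and AP1M2 and MYO5B with 3 each, all named after the counts were seen. Of the 12 epithelial-list promoters open in H1 alone 8 held the letters, and of the 6 open in both lines 3, counts too small to read a difference from.

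**Figure D5:**
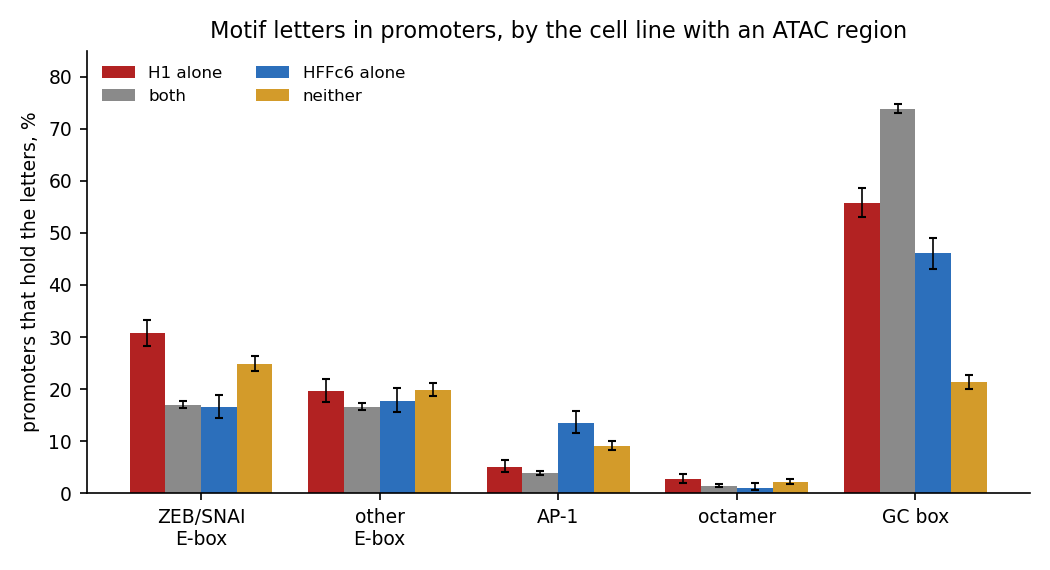
Share of promoters that hold the letters of 5 motifs on either strand, in percent, by the line in which the promoter is open, with 95% Wilson intervals. For the ZEB/SNAI E-box the H1-alone bar stands at 30.7% above the other classes, for AP-1 the HFFc6-alone bar does at 13.5%, and the other E-box is nearly level.

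The other letters were counted in the same way. The AP-1 site TGANTCA, bound by FOS and JUN proteins, stood in 5.09% (4.01 to 6.45) of H1-alone promoters, near the 5.76% of all, and in 13.5% (11.5 to 15.7) of HFFc6-alone promoters. The POU octamer ATTTGCAT stood in 2.7% (1.94 to 3.76) of H1-alone promoters against 1.7% of all and 1.08% of HFFc6-alone ones, from 34 promoters. Promoters with no region gave 2.15% (1.73 to 2.68), within the H1-alone interval. Under a CpG ratio of 0.6 the octamer was level, in 3.51% of H1-alone promoters and 3.53% of those open in both. The SOX letters ACAAAG gave 16.1% in H1-alone and 16.5% in HFFc6-alone promoters. The GC box GGGCGG stood in 55.8% of H1-alone promoters, 73.9% of those open in both and 58.5% of all. At a CpG ratio of 0.6 or more it was level, 78.9% of H1-alone against 77.7% of both. Under 0.6 it was 32.6% against 42.6%. The NRF1 letters GCATGCGC stood in 1.35% of H1-alone promoters, 6.05% of those open in both and 4.26% of all. At a ratio of 0.6 or more they stood in 2.06% of H1-alone promoters against 6.66% of both. CCAAT stood in 31.4%, TATAAA in 8.67%, the MYC E-box CACGTG in 7.72%, the TEAD letters GGAATG in 12.9%, the CRE TGACGTCA in 1.91% and the GRHL letters AACCNGTT in 1.67% of H1-alone promoters. Of all promoters these stood in 36.3, 9.64, 8.87, 11.7, 2.59 and 1.61%. A match of letters is not evidence that a factor binds. The stem-cell-named CTCF list overlapped 50.4% of H1-alone promoters and the HFFc6 list 10.2%, while for HFFc6-alone promoters it was 13.5% and 49.9%.

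The H1-only share of end regions differed among chromosomes, from 19.7% (16.7 to 23) on chromosome 14 to 35% (30 to 40.5) on chromosome 18. On chromosome 18, 109 of 311 end regions were H1-only and 47 of 270 genes were open in H1 alone (17.4%, 13.4 to 22.4), against 7 in HFFc6 alone. These genes included MYO5B, DSG3, CDH7, CDH19, CDH20, CLUL1 and TNFRSF11A. Chromosome 18 also had the highest ratio of H1 to HFFc6 regions, 1.49, and the highest H1-only share away from ends, 80%, so its gene ends and its other regions stood high together. That was not so on chromosomes 13 and 4, with 79.4% and 78.8% away from ends and 22.2% at ends on each. Chromosome 22 had 30% of end regions and 11.3% of genes open in H1 alone against 2.66% in HFFc6 alone, chromosome 21 had 29.9% and 13%, and chromosome 20 had 28.1% and 10.4%. On chromosomes 20, 21 and 22 the ratio of H1 to HFFc6 regions was 1.17, 1.12 and 1.30. The number of chromosome copies in each line was not measured here, and its part was not tested.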

How the data were processed

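The lists are narrowPeak files, 1 per cell line and assay, and how libraries were combined is not stated. BWA, MACS2, bedtools and the hg38 build are named in the submitters' processing notes, without versions or settings. The authors' fold enrichment (a ratio over the local background) and their −log10 q-value were used as deposited. Read depth is unknown, because the lists hold no totals: 189982 H1 and 155746 HFFc6 ATAC regions, and 104785 stem-cell-named and 82297 HFFc6 CTCF regions. Regions sharing 1 bp or more overlap; a region lies at a gene end within 1 kb of either outer end of a RefSeq protein-coding gene. Starts were converted to 1-based coordinates. Strand and promoter sequence come from RefSeq (GRCh38.p14), matched by gene ID for 15812 of 19974 genes. Of 215 listed genes 144 had a promoter. Motifs were matched as letters on both strands, and each may overlap another. Counting used Python 3.11.15 with pandas 2.3.3, and interval steps were tested on simulated data. No test was run, since each cell line and assay has 1 list and no values per library.

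Named genes are the members of the lists, the 10 genes with the highest weaker-end fold among those with an H1 region at each end, the 10 H1-alone genes of highest fold, the 5 with most H1-only regions and the 5 with the strongest stem-cell-named CTCF region. Members, lists and families were chosen with earlier results of these data known. The histone mark and SMC1 libraries were not used here. Alternatives changed the overlap, the q limit, the number and width of regions and the window.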

Additional observations from a re-analysis of the deposited data

Results flagged for a closer look

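Of 275 H1 ATAC regions outside chromosomes 1 to 22 and X, which the comparisons leave out, 147 overlapped no HFFc6 region.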

How the results depend on the processing

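The main values were 4644 regions, 22.9% of end regions, 1656 genes, 180 genes with both ends, and 46.6% and 12% on the 2 CTCF lists. With a −log10 q of at least 10 in all lists there were 2619 regions, 17.2% of end regions and 77 genes with both ends, and 43.1% of H1-alone promoters had a CpG ratio under 0.6. With that limit in H1 alone, added after the data were seen, there were 2281 regions, 15% of end regions, 1070 genes and 57 with both ends, CTCF shares were 69.1% and 16.8%, and the CpG share was 44.3%. With each region set to 500 bp around its summit there were 8050 regions, 2004 H1-alone promoters in place of 1257, 39.1% of end regions, CTCF shares of 44.2% and 18.3%, a CpG share of 39.6% and CACCTG in 26% of H1-alone promoters, against 16.8% of promoters open in both and 24.2% of those with no region. With equal numbers of ATAC regions 20.5% of end regions were H1-only, with 53.5% and 13.4% on CTCF. When HFFc6 had to cover at least 50% of the H1 region the shares were 26.4%, 48.6% and 15.6%. That rule cannot change a count of genes or promoters. A 500 bp window gave 3067 regions, 18.9% of end regions, 110 genes with both ends and 48.1% on stem-cell-named CTCF, and a 2 kb window 7191 regions and 28.6%. Counting an HFFc6 region within 500 bp as shared gave 19.4%. Pluripotency genes stayed at 9 to 16 of 32 and epithelial genes at 12 to 18 of 37 over the alternatives run. On chromosome 18 the gene share ran from 12.6% to 19.3%. The CTCF shares of H1-only end regions stayed between those of H1-only regions elsewhere and of shared end regions under the 5 alternatives in which all 3 classes were counted. No paired analysis was possible because each list is 1 file for all libraries. Depth, and the stem-cell-named list's own sample, are unknown, so a missing region is not closed chromatin.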
